A study of Mus musculus with 6 samples.

Results

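The 10 genes described here encode metalloproteases of the cell surface and the extracellular space, together with their protein inhibitors. They are the matrix metalloproteinases Mmp3, Mmp10, Mmp9 and Mmp14, the disintegrin metalloprotease Adam12, the secreted proteases Adamts1 and Adamts9, and the tissue inhibitors Timp1, Timp2 and Timp3. They were chosen by symbol from a table of 23481 genes, and all 10 were found in it. Mmp3, Mmp9, Adam12 and Adamts1 were picked for their levels in the library labelled shAsns-1, so every value of that library is given for the 10 genes as a description with no test. Tests on these genes were made between shAsns-2 and shRenilla.

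The cells were 4T1, a mouse mammary carcinoma line, and the deposited counts call them 4T1_T without describing the subline. All groups were infected with a short hairpin RNA and grown in DMEM with non-essential amino acids, a supplement that contains asparagine. The hairpins shAsns-1 and shAsns-2 target Asns, the gene of asparagine synthetase, and the reference shRenilla targets a luciferase that mouse cells do not have. The labels give a library A and B for each hairpin without saying whether these came from separate cultures, so p-values measure only the spread between these libraries. Where both libraries of a hairpin are given, A precedes B. The labels give no passage, time after infection or clone.

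For shAsns-1 only library A could be used, because library B held 0 reads at every gene. Gene reads per library ran from 10244753 to 15955168, and 3 reads, taken as the floor, corresponded to 0.188 to 0.293 CPM (a gene's share of all gene reads of its library, in the usual scaling). Asns stood at 110.4 CPM in the library labelled shAsns-1, at 45.7 and 44.2 CPM in the shAsns-2 libraries, and at 58.7 and 56.9 CPM in the shRenilla libraries. The library labelled shAsns-1 thus went against its label, and shAsns-2 kept most of its Asns reads. The library labelled shAsns-1 also had the fewest gene reads but reads at 17672 genes, against 15052 to 15392 genes in the other 4, and 23.2% of its reads were unaligned, against 17.9 to 20.1%. The 5 epithelial markers were read in every library, with sums of 851 CPM in the library labelled shAsns-1, 1056 and 1048 CPM in shAsns-2, and 1009 and 987 CPM in shRenilla. Of markers of other cell types, fibroblast genes summed to 39.3 CPM in the library labelled shAsns-1, 29.8 and 29.7 CPM in shAsns-2, and 28.9 and 29.1 CPM in shRenilla. Nearly all of these were reads of Pdgfra, Lum was at 0 in all 5 libraries, and Col1a2, Dcn and Pdgfrb were at 0 in shAsns-2 A and in shRenilla A. Macrophage genes summed to 6.64 CPM in the library labelled shAsns-1, 5.35 and 4.90 CPM in shAsns-2, and 4.70 and 6.93 CPM in shRenilla. Neutrophil genes summed to at most 0.390 CPM and endothelial genes to at most 1.43 CPM in any library, with S100a9 at 0 in all.

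Matrix metalloproteinases are zinc enzymes made as inactive precursors, which cut collagens, laminins and other matrix proteins once their prodomain is removed. ADAM proteases sit in the membrane and shed the outer parts of other surface proteins, while ADAMTS proteases are secreted and cut proteoglycans such as versican. TIMPs bind the catalytic site of active metalloproteases and block it. In mammary tumours these enzymes and inhibitors come from carcinoma cells and stroma alike, and in bulk RNA fewer cells that make a transcript and less of it per cell cannot be told apart.

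Timp2 and Timp1 were the most abundant of the 10 transcripts per exon length in shRenilla. Levels per length are given as CPM per kilobase of exon (RPKM), with lengths from all annotated exons, which understates genes with many isoforms. Timp2, which also helps to activate the precursor of MMP2 at the cell surface, had 156 ± 10.8 RPKM (SD, n = 2). Timp1, an inhibitor of most secreted MMPs, had 80.1 ± 2.60 RPKM (SD, n = 2). These differed by more than the spread between libraries.

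The proteases followed in order of level. Mmp3, or stromelysin-1, an enzyme that cuts proteoglycans, laminin and fibronectin, had 32.4 ± 1.77 RPKM in shRenilla (SD, n = 2). Mmp14, the membrane-bound collagenase MT1-MMP, had 14.8 and 15.1 RPKM, and Adamts1 had 14.8 and 13.5 RPKM. These 2 did not differ beyond their spread.

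Mmp10, or stromelysin-2, had 3.84 ± 0.135 RPKM in shRenilla (SD, n = 2), and Mmp9, the gelatinase B that cuts denatured collagen and type IV collagen, had 3.66 ± 0.444 RPKM, so that their ranges overlapped. Adam12, which sheds growth factor precursors such as that of HB-EGF, followed with 3.24 ± 0.0181 RPKM. Adamts9, a protease of the secretory pathway and the matrix, had 0.444 ± 0.102 RPKM. Timp3, the inhibitor that binds to the matrix and also blocks ADAM17, was barely read.

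**Figure D1:**
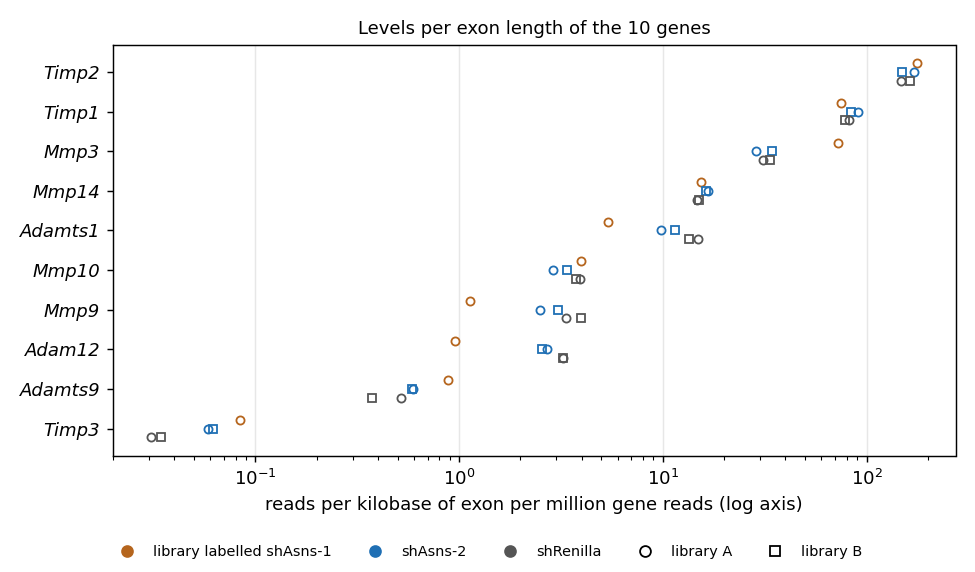
Level of each of the 10 genes per exon length on a log axis, 1 point per library, ordered from the highest shRenilla mean at the top to the lowest at the bottom. Timp2 and Timp1 lie above all proteases in shRenilla, and Mmp3 of the library labelled shAsns-1 lies apart from the other libraries at 72.4 RPKM.

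The library labelled shAsns-1 held more Mmp3 and less Mmp9, Adam12 and Adamts1 than the others, which is how these 4 genes were chosen. Mmp3 had 1335 reads or 130.3 CPM in it, against 51.8 and 61.7 CPM in the shAsns-2 libraries and 56.1 and 60.6 CPM in the shRenilla libraries. Relative to shRenilla A the level was 2.32-fold (95% interval 2.13 to 2.53, counting error only) and relative to shRenilla B it was 2.15-fold (1.97 to 2.34). The range of Mmp3 in shAsns-2 enclosed that in shRenilla.

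Mmp9 had 41 reads or 4.00 CPM in the library labelled shAsns-1, against 8.88 and 10.8 CPM in the shAsns-2 libraries and 11.8 and 14.1 CPM in the shRenilla libraries. Its ratio was 0.338 to shRenilla A (95% interval 0.241 to 0.474), and that to shRenilla B was 0.284 (0.203 to 0.398), again for counting error only. Both shAsns-2 libraries lay between that library and shRenilla. Mmp3 reads outnumbered Mmp9 reads by 32.6 times in the library labelled shAsns-1, against 5.83 and 5.71 times in the shAsns-2 libraries and 4.74 and 4.31 times in the shRenilla libraries. The high ratio in the library labelled shAsns-1 followed from the choice of both genes for their levels there.

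Adam12 had 104 reads or 10.2 CPM in the library labelled shAsns-1, against 28.6 and 26.9 CPM in the shAsns-2 libraries and 34.1 and 34.4 CPM in the shRenilla libraries. This was 0.298 of shRenilla A (95% interval 0.241 to 0.367) and, for library B, 0.295 (0.239 to 0.365). These intervals, and those of every such ratio below, cover counting error only. Adamts1, which cuts aggrecan and versican, had 292 reads or 28.5 CPM there, against 51.9 and 60.6 CPM in the shAsns-2 libraries and 78.5 and 71.4 CPM in the shRenilla libraries. That was 0.363 of shRenilla A (95% interval 0.320 to 0.413) and, for library B, 0.399 (0.350 to 0.455). For Adam12 and Adamts1, as for Mmp9, the libraries fell in the order shAsns-1, shAsns-2 and shRenilla from low to high. The groups did not overlap. The low end of this order was fixed by the choice of genes. Between shAsns-2 and shRenilla, 42.4% of all tested genes did not overlap in CPM (25.8% lower in shAsns-2).

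**Figure D2:**
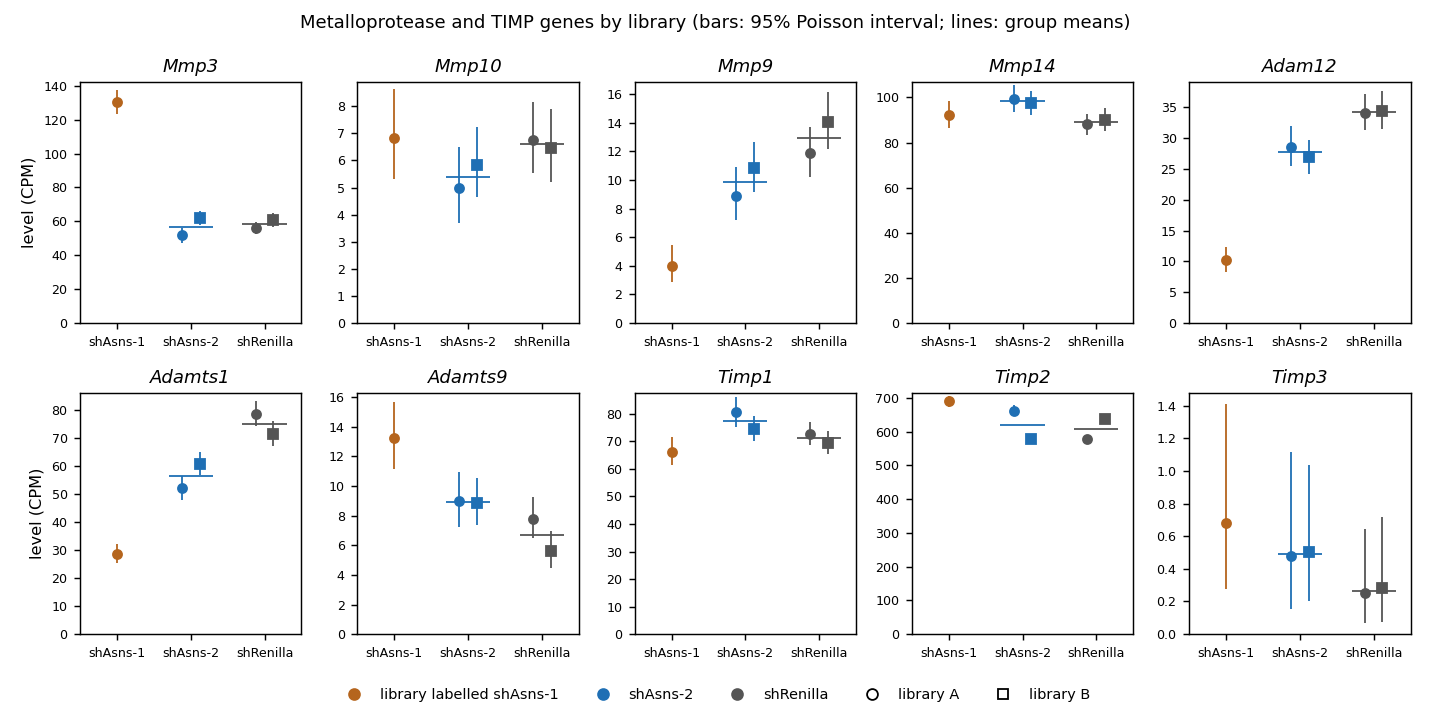
Level in CPM (linear axis from 0) of each of the 10 genes in the library labelled shAsns-1, in the shAsns-2 libraries and in the shRenilla libraries. Bars are exact 95% Poisson intervals and horizontal lines are group means. Mmp9, Adam12 and Adamts1 step up from left to right, whereas Mmp3 and Adamts9 are highest in the library labelled shAsns-1. Of these, all but Adamts9 were picked for their levels in that library.

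Of the 6 genes that were not picked for this library, Adamts9 stood furthest from shRenilla among those tested. It had 13.3 CPM in the library labelled shAsns-1, against 8.98 and 8.86 CPM in the shAsns-2 libraries and 7.77 and 5.60 CPM in the shRenilla libraries. Its ratio to shRenilla A was 1.71 (95% interval 1.34 to 2.18), and that to library B was 2.37 (1.80 to 3.13). The 2 ADAMTS genes thus lay on opposite sides of shRenilla in that library, and 0.466 Adamts9 reads were counted per Adamts1 read there, against 0.173 and 0.146 in the shAsns-2 libraries and 0.0990 and 0.0784 in the shRenilla libraries. Of the pair, Adamts1 had been picked for its level there. On the other strand, A730049H05Rik and Gm15737 overlap 9.18% and 2.82% of the Adamts9 exon length. Neither was among the genes counted, the strandedness is not known, and their part in the Adamts9 reads was not tested.

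Mmp14 and Mmp10 stayed close to shRenilla in the library labelled shAsns-1. Mmp14 had 92.2 CPM there, against 99.4 and 97.4 CPM in the shAsns-2 libraries and 88.1 and 90.2 CPM in the shRenilla libraries. Mmp10 had 6.83 CPM there, against 4.97 and 5.83 CPM in the shAsns-2 libraries and 6.77 and 6.44 CPM in the shRenilla libraries. The interval of its ratio included 1 against both shRenilla libraries (0.747 to 1.36 and 0.778 to 1.45).

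Timp1 in the library labelled shAsns-1 was at 0.911 of shRenilla A and 0.954 of shRenilla B, and Timp2 at 1.20 and 1.08 of them. Timp1 had 66.3 CPM in the library labelled shAsns-1, against 80.6 and 74.6 CPM in the shAsns-2 libraries and 72.8 and 69.5 CPM in the shRenilla libraries. Timp2 had 690 CPM there, against 663 and 579 CPM in the shAsns-2 libraries and 578 and 638 CPM in the shRenilla libraries. The shAsns-2 and shRenilla libraries overlapped for Timp2 and not for Timp1. Per length, the summed Timp1, Timp2 and Timp3 level was 2.71 times that of Mmp3, Mmp9, Mmp10 and Mmp14 in the library labelled shAsns-1, 5.14 and 4.08 times in the shAsns-2 libraries, and 4.33 and 4.28 times in the shRenilla libraries. The lower value came with the higher Mmp3 level, which the choice of genes had used.

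Timp3 had 7 reads in the library labelled shAsns-1, 5 and 7 reads in the shAsns-2 libraries, and 4 reads in each shRenilla library. These counts are just above the floor of 3 reads, and 36.3% of the 50-base words of its longest transcript also occur in transcripts of other genes. Its exons overlap those of Syn3 on the other strand over 21.3% of their length. Timp3 did not pass the filter on low counts, so 9 of the 10 genes were tested.

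Other features also set the library labelled shAsns-1 apart. Across the 8914 genes whose mean log2 CPM reached 3 and whose GC content was known, log2 fold changes in that library fell with transcript GC content (Spearman -0.325, genes not being independent), against 0.0729 in shAsns-2. The longest transcripts of Mmp3 and Mmp9 have 45.9% and 55.2% GC, against a median of 48.9%. Those of Adam12 and Adamts1 have 49.8% and 49.7%. Those of Mmp10 and Mmp14 have 46.0% and 54.3%, and their fitted log2 fold changes in that library were 0.036 and 0.038. With the GC trend of each library removed, the fitted log2 fold change was 1.13 for Mmp3, -1.62 for Mmp9, -1.73 for Adam12 and -1.38 for Adamts1, against 1.15, -1.70, -1.76 and -1.41 without that step. Of the 5 epithelial markers, 3 were called lower in that library by edgeR, with log2 fold changes of -2.21 for Krt14 (adjusted p = 5.3e-05), -0.69 for Epcam (0.00259) and -0.48 for Cdh1 (0.0135). The other 2 were not called, with -0.12 for Krt8 and 0.045 for Krt18. The part of such library-wide differences in the protease levels was not tested.

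The genes most like the 4 picked ones over the 5 libraries were ranked by distance between centred log2 CPM profiles among the 8950 genes whose mean log2 CPM reached 3. With 5 libraries, such profiles are set mainly by the library labelled shAsns-1. Nearest to Mmp9 were Gpr97, Adam12 and Rgs16, at distances of 0.272, 0.341 and 0.355 on the log2 scale. Nearest to Adam12 were Rgs16 (0.198), Lamb3 (0.265) and Mmp9 (0.341), where Mmp9 and Adam12 had both been picked for their low level in that library. Nearest to Adamts1 were Gpr97 (0.216), Cyr61 (0.283) and Akap12 (0.333). Nearest to Mmp3 were Rpa3 (0.348), Bnip3 (0.353) and Amigo2 (0.353).

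In shAsns-2 compared with shRenilla, Adamts1 showed the smallest p-value of the 9 tested genes. It averaged 56.3 ± 6.14 CPM in shAsns-2 and 74.9 ± 5.00 CPM in shRenilla (SD, n = 2 each), with both shAsns-2 libraries below both shRenilla libraries. The log2 fold change was -0.38 (SE 0.0955; 0.768-fold, 95% interval 0.667 to 0.883). The unadjusted p was 0.000972 in edgeR's quasi-likelihood test, and the adjusted p over all 12457 genes tested was 0.192. With no filter on low counts the same difference reached an adjusted p of 0.0190, while the adjusted p went up to 0.998 without shAsns-2 A, within a range of 0.00742 to 0.998 over all alternatives.

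Adam12 and Mmp9 lay on the same side. Adam12 averaged 27.7 ± 1.20 CPM in shAsns-2 and 34.2 ± 0.192 CPM in shRenilla (SD, n = 2 each), a log2 fold change of -0.28 (SE 0.101; 0.824-fold, 95% interval 0.710 to 0.955). Its p in edgeR's quasi-likelihood test was 0.0134 unadjusted and 0.392 adjusted. Mmp9 averaged 9.84 ± 1.36 CPM in shAsns-2 and 13.0 ± 1.57 CPM in shRenilla (SD, n = 2 each), with a log2 fold change of -0.35 (SE 0.151; 0.783-fold, 95% interval 0.628 to 0.977). The p of Mmp9 in the same fit was 0.0325 unadjusted and 0.467 adjusted, and its log2 fold change was -0.23 without shRenilla B. The contrasts of both hairpins share the shRenilla libraries, so the lower values of these 3 genes in each are not independent of one another.

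Adamts9 had its higher level in shAsns-2, at 8.92 ± 0.0847 CPM, against 6.69 ± 1.54 CPM in shRenilla (SD, n = 2 each). The log2 fold change was 0.43 (SE 0.178; 1.35-fold, 95% interval 1.04 to 1.75), with a p of 0.0269 unadjusted and 0.451 adjusted in edgeR's fit. This value depended on the control library: it was 0.71 without shRenilla A and 0.22 without shRenilla B. Mmp14 had a log2 fold change of 0.17 (SE 0.0809, unadjusted p = 0.0501, adjusted p = 0.516 in edgeR's fit).

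The remaining 4 tested genes had larger p-values in edgeR's fit. Mmp10 had a log2 fold change of -0.25 (95% interval of the fold 0.641 to 1.10, adjusted p = 0.668) and Timp1 one of 0.15 (0.979 to 1.26, adjusted p = 0.598). Without shAsns-2 A the log2 fold change was -0.16 for Mmp10 and 0.09 for Timp1, and without shAsns-2 B it was -0.38 for Mmp10. Timp2 had 0.06 (0.917 to 1.18, adjusted p = 0.868), and its sign turned without shAsns-2 A or shRenilla A. Mmp3 had -0.0067 (SE 0.0961, adjusted p = 0.986), with an interval of the fold of 0.865 to 1.15.

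In total, 0 of the 9 tested genes were called in shAsns-2 at an adjusted p under 0.05, where 0.0642% of all tested genes were called, all of them higher. DESeq2 and limma-voom also called 0. At an unadjusted p under 0.05, edgeR gave 1 of the 9 as higher and 3 as lower, against 9.63% of all tested genes (5.59% higher, 4.05% lower). DESeq2 gave 0 as higher and 1 as lower at that threshold, and limma-voom 2 and 3. The 3 lower in edgeR's fit were Adamts1, Adam12 and Mmp9, all picked for their levels in the library labelled shAsns-1. The contrasts of both hairpins share the shRenilla libraries, so these counts are not independent of that choice. After TMM scaling, the libraries of shAsns-2 and shRenilla did not overlap for 7 of the 9 (3 higher, 4 lower), against 41.2% of all tested genes (20.6% higher, 20.7% lower). In CPM without that scaling the same 7 did not overlap, against 42.4% of all tested genes (16.6% higher, 25.8% lower). The 4 lower were Mmp10 and the picked genes Adamts1, Adam12 and Mmp9. These shares are thus not independent of the choice of genes either. The median log2 fold change of the 9 genes was -0.0067, beside -0.0014 over all tested genes.

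**Figure D3:**
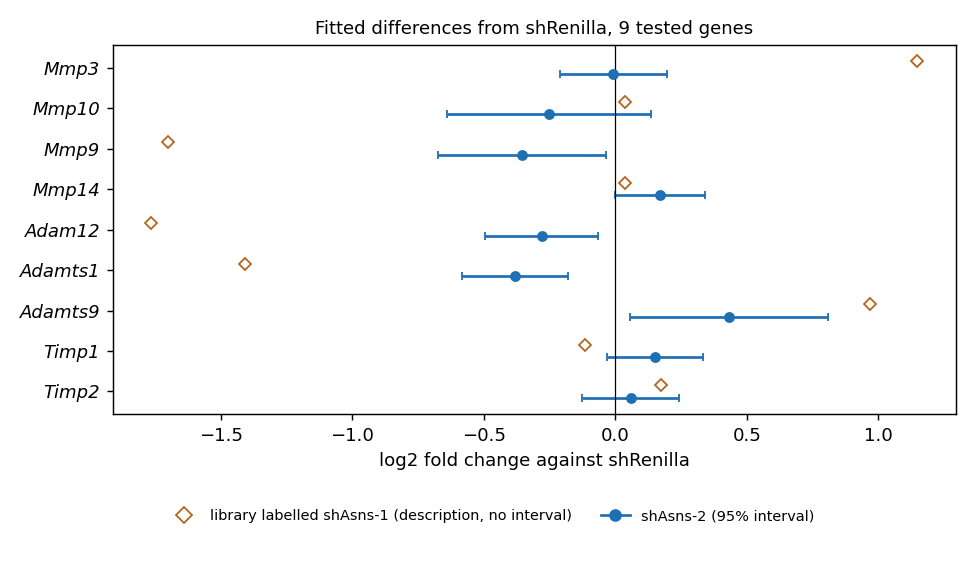
Fitted log2 fold changes against shRenilla of the 9 tested genes. Open diamonds are the library labelled shAsns-1, given as a description with no interval, and filled circles are shAsns-2 with 95% intervals. The diamonds spread from -1.76 for Adam12 to 1.15 for Mmp3, whereas all shAsns-2 values lie between -0.38 and 0.43.

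Mmp3 and Mmp10 belong to a cluster of 10 MMP genes on chromosome 9 that holds collagenase, stromelysin and elastase genes. On GRCm38 (mm10), Mmp3 (ENSMUSG00000043613) lies at 7445822 to 7455975 and Mmp10 (ENSMUSG00000047562) at 7502352 to 7510240, both on the plus strand and each with 10 exon blocks. Of the cluster, only Mmp1a lies between them. The other 8 genes lie on other chromosomes, with Mmp9 on the plus strand of chromosome 2 at 164940780 to 164955850 and Mmp14 on that of chromosome 14 at 54431612 to 54445364. Adam12 spans 133883199 to 134232146 on the minus strand of chromosome 7, Adamts1 85793827 to 85803113 on that of chromosome 16, and Adamts9 92772699 to 92943492 on that of chromosome 6. Timp1 lies at 20870166 to 20874735 on the plus strand of chromosome X, inside the span of Syn1 on the other strand with 0 shared exon bases. Timp2 lies at 118301069 to 118355740 on the minus strand of chromosome 11, and Timp3 at 86300372 to 86349506 on the plus strand of chromosome 10. The windows of 250 bases upstream of the RefSeq starts of Mmp3 and Mmp10 are shown because the levels of these related stromelysin genes lay apart in the library labelled shAsns-1, and that of Adamts1 because it had the smallest p in shAsns-2. Capitals mark the AP-1 motif TGAGTCA and the TATA motif TATAAA, each searched on both strands, and the matches did not overlap.
Mmp3, chr9:7445572-7445821, plus strand: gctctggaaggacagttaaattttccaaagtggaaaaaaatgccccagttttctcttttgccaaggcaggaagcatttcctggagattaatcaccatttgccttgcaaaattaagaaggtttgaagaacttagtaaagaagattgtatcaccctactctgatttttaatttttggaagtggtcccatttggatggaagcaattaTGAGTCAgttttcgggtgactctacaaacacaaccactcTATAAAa
Mmp10, chr9:7502092-7502341, plus strand: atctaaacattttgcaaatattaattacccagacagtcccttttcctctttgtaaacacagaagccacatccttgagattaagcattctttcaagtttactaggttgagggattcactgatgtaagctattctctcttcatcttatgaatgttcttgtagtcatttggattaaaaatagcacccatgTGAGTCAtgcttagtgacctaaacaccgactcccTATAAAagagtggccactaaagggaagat
Adamts1, chr16:85803114-85803363, minus strand: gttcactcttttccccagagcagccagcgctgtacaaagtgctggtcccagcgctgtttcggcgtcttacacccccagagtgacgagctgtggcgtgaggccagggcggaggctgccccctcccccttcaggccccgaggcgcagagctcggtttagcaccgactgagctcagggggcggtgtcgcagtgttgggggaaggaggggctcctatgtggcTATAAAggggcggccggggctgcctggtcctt

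The sequences are from RefSeq on GRCm38.p6, where 8 of the 10 genes had an entry, and Mmp9 and Adam12 are named only. The AP-1 motif was found for Mmp3 and Mmp10 and in the windows of none of the other 6 genes with an entry. Of 32851 windows of the same length, 4.46% hold it, and 12.4% hold the TATA motif. Both stromelysin windows carry both motifs, while Mmp3 stood at 223% of the shRenilla mean and Mmp10 at 103% in the library labelled shAsns-1. A match in letters is a description of the sequence and not a measured site.

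Within the cluster, Mmp3 took most of the reads. In the library labelled shAsns-1, Mmp1a and Mmp1b, the mouse relatives of the interstitial collagenase, had 7.32 and 8.78 CPM. Mmp1a had 3.63 and 3.02 CPM in shAsns-2 and 3.07 and 2.52 CPM in shRenilla, and Mmp1b had 5.25 and 4.97 CPM in shAsns-2 and 5.26 and 4.48 CPM in shRenilla. Mmp13, or collagenase-3, had 4.49 CPM in the library labelled shAsns-1, 3.92 and 3.53 CPM in shAsns-2, and 3.32 and 2.87 CPM in shRenilla. Mmp12, Mmp8, Mmp20, Mmp27 and Mmp7 had at most 2 reads in any library, which is under the floor. Of the 50-base words of the longest transcripts, 8.39% of those of Mmp3 and 8.37% of those of Mmp10 occur in another gene, and 8.26% and 19.7% of those of Mmp1a and Mmp1b. Counts of such paralogs are uncertain where reads could be assigned to either, and the deposited tally of reads with several alignments was 0.

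**Figure D4:**
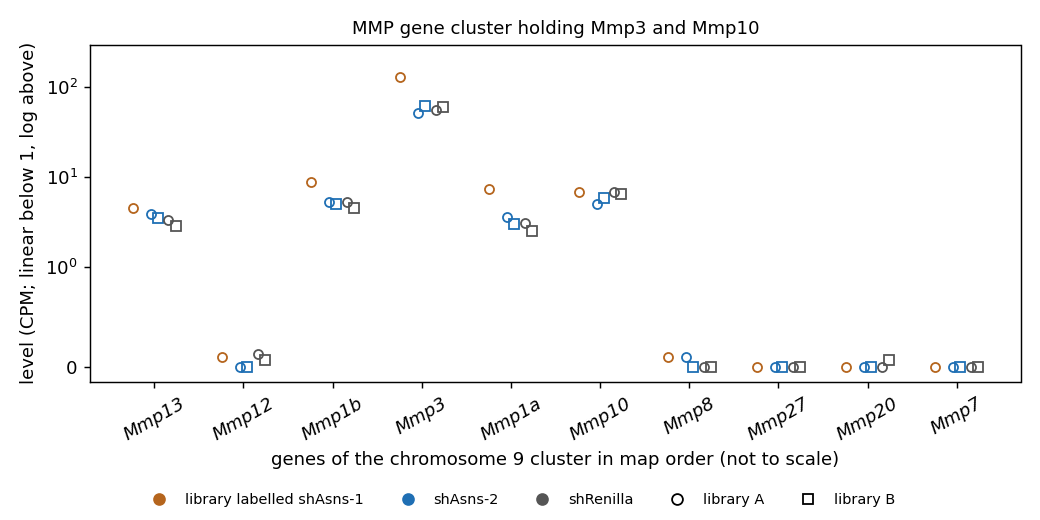
Level in CPM of the 10 MMP genes on chromosome 9 in map order, 1 point per library; the axis is linear below 1 CPM and logarithmic above. Mmp3, Mmp1a, Mmp1b and Mmp13 are highest in the library labelled shAsns-1, Mmp10 is not set apart there, and the 5 genes at the bottom of the axis are essentially unread.

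Beyond the 10 genes, 129 other genes of these families and of linked pathways were looked at, of which 89 were tested. The lists were drawn up with earlier results of these data known. In shAsns-2, 0 of the 89 were called by edgeR, DESeq2 or limma-voom, where edgeR called 0.0642% of all tested genes. At an unadjusted p under 0.05, edgeR gave 9 as higher and 0 as lower, against 9.63% of all tested genes (5.59% higher, 4.05% lower). At that threshold DESeq2 gave 3 and 0, and limma-voom 9 and 0. The median log2 fold change of the 89 was 0.06, beside -0.0014 over all tested genes.

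Those with the smallest p-values in shAsns-2 came from several of the lists. Lrp1, the endocytic receptor that clears MMP and TIMP complexes from the cell surface, had 220 and 177 CPM in the shAsns-2 libraries, against 165 and 134 CPM in the shRenilla libraries. Its log2 fold change was 0.44 (SE 0.111), with a p of 0.00111 unadjusted and 0.205 adjusted in edgeR's fit, and its adjusted p was 0.000671 with no filter on low counts and 0.998 without shAsns-2 A. The log2 fold change of Lrp1 was 0.26 without shAsns-2 A and 0.29 without shRenilla B. Etv4, an ETS transcription factor, had a log2 fold change of 0.40 (adjusted p = 0.303), Fosl1, a subunit of AP-1, 0.32 (adjusted p = 0.423), and Cx3cl1, a chemokine shed by ADAM10 and ADAM17, 0.29 (adjusted p = 0.424). Mmp11, or stromelysin-3, had 0.35, Adamts14, a procollagen peptidase, 0.25, and the urokinase receptor gene Plaur 0.19, with adjusted p-values of 0.463, 0.446 and 0.472 in the same fit. The syndecan gene Sdc4 had 0.19, Adam3 0.35, Adam15 0.13, Mmp13 0.28, Reck 0.15, Adamts8 -0.20, Thbs1 -0.15 and the proprotein convertase gene Pcsk7 -0.23, with adjusted p-values from 0.451 to 0.749.

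In the library labelled shAsns-1, 9 of the 89 genes were called (4 higher, 5 lower, 80 not called) by edgeR, which is 10.1%, against 4.37% of all tested genes (2.31% higher, 2.06% lower). At an unadjusted p under 0.05, 13 were higher and 21 lower, against 19.6% of all tested genes (10% higher, 9.54% lower). In this fit the single library takes its spread from the groups with 2 libraries. DESeq2 called 3 of the 89, and 5 were called without shRenilla A. The median log2 fold change of the 89 was -0.09, beside -0.0090 over all tested genes.

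Of the 8 other MMPs tested, Mmp1a and Mmp1b rose and 6 were not called. Mmp1a had a log2 fold change of 1.37 (adjusted p = 0.00834 in edgeR's fit), which was called in all 9 alternatives that gave an adjusted p. Mmp1b had 0.83 (adjusted p = 0.0476) and was called in 2 of 9, with the call lost without any 1 of the other libraries. Of the 14 other ADAMs tested, Adam19, a relative of Adam12 that sheds neuregulin, fell and 13 were not called. Adam19 had 100.5 CPM there, against 134 and 128 CPM in shAsns-2 and 138 and 130 CPM in shRenilla, a log2 fold change of -0.43 (adjusted p = 0.0288). It was no longer called without shAsns-2 A (adjusted p = 0.0868), shAsns-2 B (0.0862) or shRenilla A (0.0697), and was found in 5 of 10 alternatives. The main sheddase genes were not called in that library, with log2 fold changes of 0.05 for Adam10 and 0.08 for Adam17. Of the 7 other ADAMTS genes tested, 0 were called by edgeR. At an unadjusted p under 0.05 edgeR gave 2 as higher and 1 as lower, against 10% and 9.54% of all tested genes. Limma-voom called 1, Adamts12 (adjusted p = 0.0373). Adamts12 had 10 reads there, 3 and 2 in shAsns-2, and 2 and 1 in shRenilla, which is near the floor of 3 reads. It was called in 1 of 9 alternatives.

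Among inhibitors other than the TIMPs, only Reck passed the filter on low counts, and it rose. Reck, a membrane-anchored inhibitor of MMP9 and MMP14, had 18.6 CPM in the library labelled shAsns-1, against 13.1 and 12.6 CPM in shAsns-2 and 11.5 and 12.04 CPM in shRenilla. The log2 fold change was 0.65 (adjusted p = 0.0265 in edgeR's fit), with the call lost under DESeq2 (0.176) and without shRenilla A (0.0826).

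Of the 11 genes of protease activation and the plasminogen system, 10 were not called, among them the urokinase gene Plau with a log2 fold change of -0.02. By fitted log2 fold change, 4 of these 11 were higher and 7 lower, with a median of -0.19. Of the 14 tested surface partners of the proteases, 3 were higher and 11 lower, with a median of -0.20. Of the 14 surface partners, Thbs1, the matricellular protein thrombospondin-1, fell (-0.54, adjusted p = 0.00601 in edgeR's fit) and 13 were not called, with Cd44, a docking site of MMP9, at -0.05. Of the 18 genes for proteins shed by ADAMs, Cxcl16 (-1.27, adjusted p = 0.000162) and L1cam (-0.80, adjusted p = 0.0490) fell, Il6ra (0.50, adjusted p = 0.0299) rose, and 15 were not called.

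The calls of Thbs1 and Cxcl16 were found in all 10 alternatives. L1cam and Il6ra were called in 5 of 10 each. L1cam lost its call without shRenilla A (adjusted p = 0.195) or shRenilla B (0.0587), and Il6ra without any 1 of the other 4 libraries (0.0518 to 0.0682). Of the 16 AP-1, ETS and NF-kB factors, 0 were called by edgeR, DESeq2 or limma-voom. At an unadjusted p under 0.05 edgeR gave 1 as higher and 5 as lower, against 10% and 9.54% of all tested genes. By fitted log2 fold change, 5 of the 16 were higher and 11 lower, with a median of -0.13. Jun had a log2 fold change of -0.0017 and Fosl1 of 0.09, and both values were added after values were seen.

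**Figure D5:**
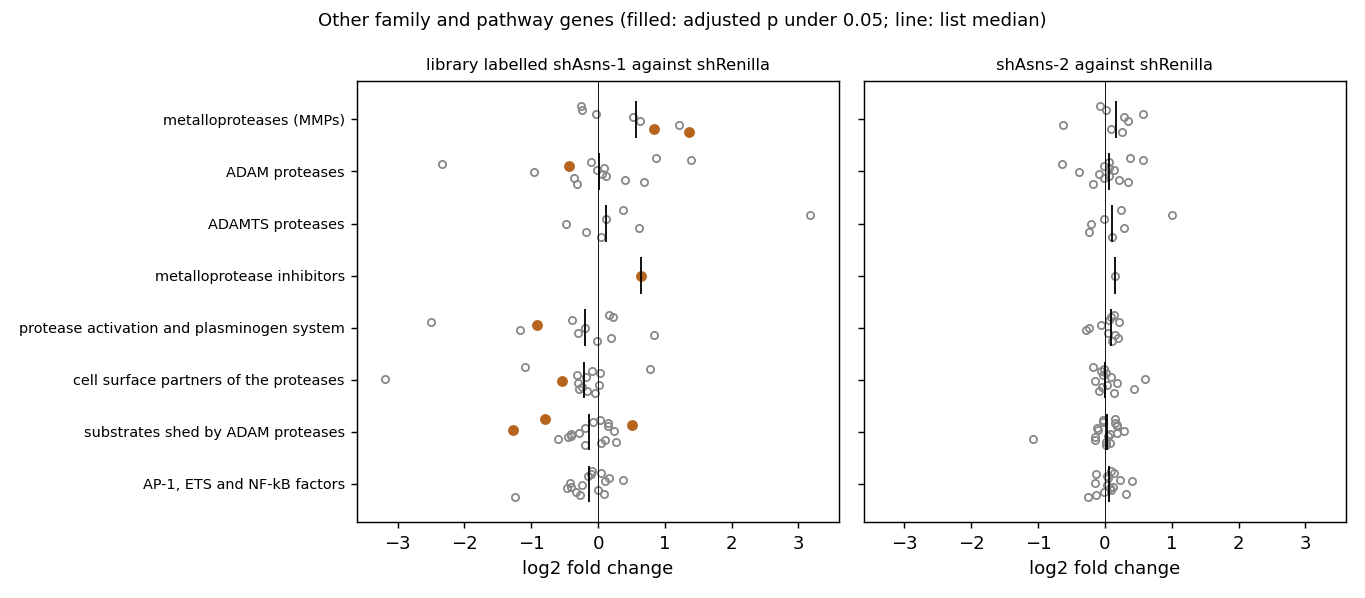
Log2 fold changes against shRenilla of the 89 other tested genes by list, with the library labelled shAsns-1 on the left and shAsns-2 on the right. Filled points passed an adjusted p under 0.05 and vertical lines are list medians. The 9 filled points are all on the left, where the MMP list has its median at 0.57.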

How the data were processed

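Reads of mRNA libraries were counted per gene. Per the submitters' processing notes, the authors used Bowtie2, HTSeq and the genome build mm10. The sources used here give no tool version, annotation or strandedness. The deposited values are whole read counts for 23481 genes, with 5 rows of HTSeq tallies kept out of library sizes and tests. Reads in no feature made up 36.1 to 38.3%, unaligned reads 17.9 to 23.2% and ambiguous reads 0.584 to 0.626% of all reads. The library shAsns-1 B held 0 reads and was left out, so 5 libraries were fitted, with 2 residual degrees of freedom. Every column belonged to a labelled sample.

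Genes were kept by filterByExpr (12457 left), scaled by TMM and fitted over all groups with edgeR 4.0.16 in R 4.3.3 by its quasi-likelihood test, with limma 3.58.1 (voom) and DESeq2 1.42.0 as alternatives. P-values were adjusted by Benjamini-Hochberg over the whole tested table, with calls at an adjusted p under 0.05. CPM values carry no TMM factor. Profiles of log2 CPM had a prior count of 2. Positions and exon lengths are from GENCODE vM21 (GRCm38), which matched 21911 rows by symbol and 1184 by older symbol. The members and lists were chosen with earlier results of these data known. Genes outside the 10 were named by rule: those called, up to 4 per list, the 2 of smallest p per list in shAsns-2, and the 3 nearest profiles; Adam10, Adam17, Plau, Cd44, Jun, Adamts12 and the values of Fosl1 in the library labelled shAsns-1 were added after values were seen. Of the called list genes, 1 is counted and not reported here. The fit was tried on simulated counts with the common dispersion for all genes and no GC trend, so that run did not test the calls given here. Intervals of ratios between single libraries and Poisson intervals of levels cover counting error only. Those of fold changes in shAsns-2 come from the fit.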

Additional observations from a re-analysis of the deposited data

How the results depend on the processing

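Over the 9 tested genes and 11 alternatives in shAsns-2, 92 of 99 values kept their direction and their side of the threshold. Adamts1 passed it in the fit with no low-count filter and in that with a replicate block by library letter, so that 1 of the 10 genes was called in each, against 0 otherwise; among the other listed genes, Lrp1 made it 1 in each. Deviations of shAsns-2 A and shRenilla A from their group means had a correlation of -0.0173 across genes, so the letters were not taken as pairs. The direction of Mmp3 turned with the GC trend removed (0.013), without shAsns-2 A (0.105) and without shRenilla B (0.044), with a range of -0.139 to 0.105 over the libraries left out. That of Timp2 turned without shAsns-2 A (-0.047) and without shRenilla A (-0.0015), with a range of -0.047 to 0.159. In the library labelled shAsns-1, Mmp10 turned to -0.0061 without shRenilla B and was 0.083 without shRenilla A. There, the number of other genes called was 3 with DESeq2, 17 with no filter, 17 with the replicate block and 5 to 12 when 1 library was left out; the cause was not tested. DESeq2 gave no adjusted p for Mmp1a and Mmp1b. Leaving out any library left 0 of the 10 genes called in shAsns-2. Over all genes in shAsns-2, 8 were called higher and 0 lower, against 87 and 27 with no filter, 134 and 44 with the replicate block, 3 and 0 with the GC trend removed, 37 and 10 without shRenilla A, and 0 and 0 without shAsns-2 A or without shRenilla B. The depth limits Timp3, Mmp12 and the lower cluster genes most.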
